A study of Mus musculus and Homo sapiens
Mus musculus with 12 samples.

Results

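Antisense genes are named after the gene on the opposite strand, and in the mouse nomenclature their symbols end in os (opposite strand) or as (antisense). Of the 34496 gene symbols in the count files of the mouse brain, 278 ended in os, os1, os2, os3, os4, as or as1 and left another gene symbol of the files when that ending was removed. Hras is a protein-coding proto-oncogene that meets the rule only by its spelling (Hr is a gene as well), and was set apart. The remaining 277 antisense genes had 240 sense partners, because 28 partners had more than 1 antisense gene. Kcnq1ot1, which carries another ending, was not among them. No measured value was used to choose the members.

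Nuclei came from the brain of wild-type C57BL/6J male mice and were profiled by snHH-seq, a droplet method for total RNA of single nuclei that primes reverse transcription with random primers. The 7 libraries fall into 4 groups by storage and by primer: frozen brain without preindex (2 libraries), frozen brain with preindex (2), fresh brain without preindex (2) and fresh brain with preindex (1). Preindex means that the primer carried a well barcode. Values are unique fragment identifiers (UFIs), each counted once per cDNA fragment. For 4 libraries the treatment field contradicts the title. The titles were followed here, and the cell barcodes were longer in the libraries that the titles call preindexed.

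The libraries held 700 to 3100 nuclei, 11198 in all, with 8605214 to 42439731 UFIs per library and a median of 9011.5 to 27543 UFIs per nucleus. A pair of libraries shared 0 to 10 cell barcodes. Clustering without the antisense genes and their partners gave 25 clusters, of which 19 with 9895 nuclei were neuron-like, which fits the labelled tissue. A cluster of 481 nuclei expressed kidney tubule genes and came from the preindexed frozen libraries alone (268 and 213 nuclei). A cluster of 91 nuclei led by Cps1 carried liver and microglia genes and stayed unnamed. Of the 273 cerebellar granule-like nuclei, 98.5% came from libraries without preindex. These nuclei touch several results and are named beside them.

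Antisense transcription starts on the strand opposite to a gene, often from the gene's own promoter region, and gives RNAs that mostly do not code for protein and stay in the nucleus. Some antisense RNAs act on the chromatin or the splicing of the gene they overlap, while others are made from a shared open promoter without a known function of their own. Developmental transcription factors, such as the Dlx, Lhx and Nkx homeobox genes, are a class in which such partners were described early, with the Dlx6 antisense RNA (Evf2) of the embryonic forebrain as a textbook case.

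In the annotation of the GRCm38 build (GENCODE M21), both genes were found for 273 pairs, and in each of these the genes lay on opposite strands of the same chromosome. The annotation typed 239 antisense genes as antisense, 12 as processed transcripts, 10 as lincRNA and 9 as protein coding. These 9 were kept in all counts of antisense genes. In 119 pairs the antisense gene lay wholly inside its partner. The genes were head-to-head in 78 overlapping pairs and in 37 pairs that did not overlap, tail-to-tail in 23 overlapping and 8 separate pairs, and in 8 pairs the antisense gene enclosed its partner. Start sites of 67 pairs were within 1000 bp of each other.

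The promoters of 4 divergent pairs are printed because the antisense start and the partner's start both fall inside the RefSeq promoter window of 300 bases, so that the stretch between them can be seen. They were chosen after their values had been seen, to set pairs that were alike across clusters beside pairs that were not. Sequences are from RefSeq on GRCm38.p6, 5′ to 3′ on the antisense gene's strand, and capitals mark the bases from the partner's start site to the antisense start site. The window of Ptgs2os lies at chr1:150099825-150100124 on the minus strand, and the starts of the pair are 157 bp apart. That of Lhx1os lies at chr11:84525410-84525709 on the plus strand with 126 bp between the starts. The window of Mkln1os lies at chr6:31398724-31399023 on the minus strand with 55 bp, and that of Cep83os at chr10:94688564-94688863 on the minus strand with 177 bp.
Ptgs2os: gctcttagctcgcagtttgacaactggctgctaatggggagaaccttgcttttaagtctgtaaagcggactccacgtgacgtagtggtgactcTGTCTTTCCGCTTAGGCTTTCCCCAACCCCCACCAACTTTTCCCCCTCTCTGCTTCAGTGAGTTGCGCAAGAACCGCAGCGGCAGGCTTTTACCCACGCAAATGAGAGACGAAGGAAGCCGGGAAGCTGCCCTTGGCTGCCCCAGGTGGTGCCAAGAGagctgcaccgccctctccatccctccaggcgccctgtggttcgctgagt
Lhx1os: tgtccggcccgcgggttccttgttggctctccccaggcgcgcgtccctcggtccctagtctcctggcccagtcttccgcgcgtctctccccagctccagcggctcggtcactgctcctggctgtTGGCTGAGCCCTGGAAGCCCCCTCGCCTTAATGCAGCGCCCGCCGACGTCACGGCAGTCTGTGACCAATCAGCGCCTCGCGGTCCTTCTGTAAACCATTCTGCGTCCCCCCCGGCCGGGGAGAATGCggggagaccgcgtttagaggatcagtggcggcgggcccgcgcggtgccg
Mkln1os: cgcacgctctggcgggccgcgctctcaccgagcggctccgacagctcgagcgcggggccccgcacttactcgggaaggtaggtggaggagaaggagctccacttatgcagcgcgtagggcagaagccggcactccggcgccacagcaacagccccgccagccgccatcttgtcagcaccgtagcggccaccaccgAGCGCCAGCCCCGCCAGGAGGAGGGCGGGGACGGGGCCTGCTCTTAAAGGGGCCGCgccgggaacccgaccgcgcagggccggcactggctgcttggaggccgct
Cep83os: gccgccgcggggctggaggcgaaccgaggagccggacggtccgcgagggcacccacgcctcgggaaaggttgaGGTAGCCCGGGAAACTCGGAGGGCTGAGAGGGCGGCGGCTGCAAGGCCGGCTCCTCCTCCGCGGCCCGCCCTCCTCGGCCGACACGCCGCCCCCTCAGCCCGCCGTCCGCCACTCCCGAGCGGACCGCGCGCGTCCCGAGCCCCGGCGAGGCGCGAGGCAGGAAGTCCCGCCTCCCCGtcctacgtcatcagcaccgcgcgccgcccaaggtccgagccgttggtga

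The windows of Ptgs2os, Lhx1os, Mkln1os and Cep83os were rich in G and C at 57.7, 69.3, 72.7 and 76.7%, and they held 14, 33, 35 and 46 CpG dinucleotides. None of them held the TATA box letters TATAAA on either strand. RefSeq promoter entries were found for 168 antisense genes and 192 partners. The median promoter of the 47 antisense genes that start head-to-head within 1000 bp of their partner had 63% G and C and 23 CpG, and 2.13% of these promoters held TATAAA. For the other 121 antisense genes the medians were 51.3% and 5 CpG, with TATAAA in 10.7%. Among all 32851 RefSeq mouse promoters the medians were 52.7% and 7 CpG, and 13.6% held TATAAA. The 192 promoters of the partners had medians of 60.3% and 19 CpG, and 6.77% held TATAAA.

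Antisense genes were rare in the counts. They held 76808 of 180739290 UFIs (0.0425%), while their partners held 2.90%. The median antisense gene had 33 UFIs over the 7 libraries and the median partner 2031. Of the 277 antisense genes, 69 had fewer than 10 UFIs, 54 had at least 200 and 21 had at least 1000, and the 10 leading genes held 49.9% of antisense UFIs. A UFI was seen in 7 libraries for 156 antisense genes and in 1 library for 11.

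The antisense share of the UFIs was 3.80 and 4.07 UFIs per 10000 in frozen brain without preindex, 4.86 and 4.61 in frozen brain with preindex, 4.05 and 4.23 in fresh brain without preindex and 3.78 in fresh brain with preindex. The preindexed frozen libraries, which hold the kidney tubule-like nuclei, were the highest. The fresh preindexed library was the lowest, and the 2 groups without preindex overlapped. Scaled to a common library total (CPM), Hnf4aos measured 66.3 and 60.9 in the preindexed frozen libraries and 0.116 to 1.84 in the others. The lead of the preindexed frozen libraries over the highest other library was no larger than this level of Hnf4aos alone. The lead is therefore not shown for antisense genes in general. At full depth 91.5 to 99.8% of the nuclei of a library had at least 1 antisense UFI, on 2.83 to 8.10 antisense genes per nucleus, in the order of depth. With every nucleus thinned to 3000 UFIs (11195 of 11198 nuclei kept) the share was 62.5 to 68.3%, on 1.01 to 1.21 genes per nucleus. At least 1% of nuclei had a UFI for 69 antisense genes and for 200 partners. At least 10% had one for 10 antisense genes, and after thinning 29 antisense genes reached 1%. The number of antisense genes seen per nucleus thus went with depth, and thinning lowers detection of any gene. A gene without a UFI here may be absent or too low to be seen, which cannot be told apart.

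Dlx6os1, the antisense RNA that spans Dlx6, had the highest mean level of all antisense genes. With UFI counts scaled to a common library total (CPM), it measured 29.6 and 50.6 CPM in frozen brain without preindex, 66.8 and 58.1 in frozen brain with preindex, 51.8 and 55.6 in fresh brain without preindex and 63.0 in fresh brain with preindex. The 3 preindexed libraries were higher than the other 4 (log2 difference 0.55, SE 0.16, adjusted p 0.053 by edgeR and 0.00245 by DESeq2). The storage groups overlapped. Dlx6os1 was high in inhibitory kinds of nuclei, described below, whose share of the nuclei differed between libraries. Whether the difference by primer holds at equal shares was not tested. Junos, divergent from the immediate early gene Jun, measured 25.4 to 32.3 CPM, and Ino80dos, divergent from a subunit gene of the INO80 chromatin remodeller, 27.1 to 30.4. Rab10os (15.2 to 18.2), Mkln1os (12.4 to 15.6) and Man2c1os (10.3 to 13.9) varied by similar amounts between libraries. Emx2os, antisense to a cortical homeobox gene, measured 16.6 and 18.6 in the preindexed frozen libraries and 8.90 to 11.8 in the others, with no overlap. Its highest level by kind was in kidney tubule-like nuclei, which came from the preindexed frozen libraries alone. The CPM of Emx2os without these nuclei is not given here.

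Hnf4aos, antisense to a transcription factor of liver and kidney epithelium, differed most between libraries among the 8 genes with the highest mean level. It measured 66.3 and 60.9 CPM in the preindexed frozen libraries, but 0.116 and 0.136 in frozen brain without preindex, 0.525 and 0.660 in fresh brain without preindex and 1.84 in fresh brain with preindex. Its mean level ranked among the first 8 because of these libraries, which hold the kidney tubule-like nuclei. By comparison, the mean of other non-coding RNAs of the brain was 2827 CPM for Meg3, 5454 for Malat1, 379 for Kcnq1ot1 and 370 for Sox2ot. These were above every antisense gene, while the means of Neat1 (47.5) and Pantr1 (41.7) lay below that of Dlx6os1 (53.7). The Neat1 mean joins unlike levels, with 136 and 123 CPM in the preindexed frozen libraries and 13.1 to 18.3 in the others. In the preindexed frozen libraries Neat1 lay above Dlx6os1.

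**Figure D1:**
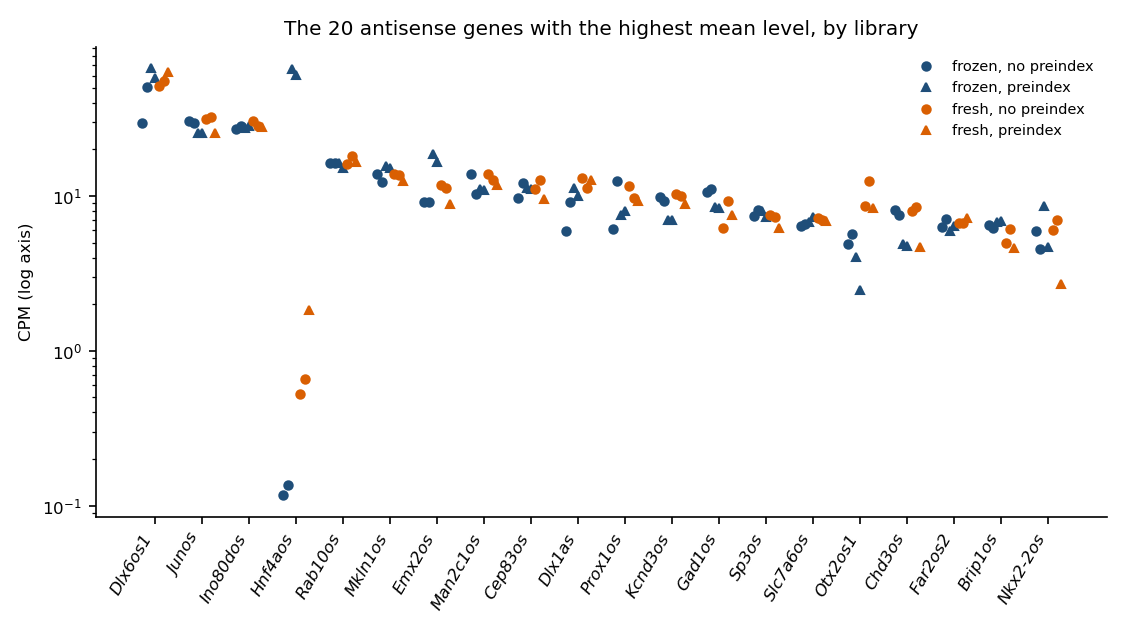
CPM (vertical log axis) of the 20 antisense genes with the highest mean level, with 1 point per library and symbols for the 4 groups of storage and primer. Most genes vary little between libraries, whereas Hnf4aos stands apart in the 2 preindexed frozen libraries.

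Gene length differs between partners, so their levels were compared per kb of gene span, since introns were counted. Over the 273 pairs the antisense gene had a median of 8.73% of its partner's UFIs per kb, and it exceeded the partner in 35 pairs. The position of the antisense gene went with this level. Antisense genes inside their partner had a median of 13 UFIs and 1.69% of the partner's level per kb, and 5 of 119 exceeded it. Head-to-head overlapping antisense genes had a median of 62 UFIs and 39.7%, and 17 of 78 exceeded their partner. In head-to-head pairs that did not overlap the median was 20.5%, in overlapping tail-to-tail pairs 5.74% and in separate tail-to-tail pairs 11.9%. The 8 antisense genes that enclose their partner had a median of 755.5 UFIs and 78.3%, and 4 of them exceeded it. The study describes the quantification by UFI as strand-specific, but the setting of the read counting is not given in the sources used here. If strand was not used in counting, reads of overlapping partners cannot be told apart. The levels of overlapping pairs may then have gained or lost reads, and this was not tested.

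Among single pairs, Hnf4aos had 283% of the level of Hnf4a per kb (78.9 against 27.9 UFIs per kb), Dlx6os1 214% of Dlx6 (200 against 93.4) and Emx2os 201% of Emx2 (68.2 against 33.9). The value for Hnf4aos rests on the kidney tubule-like nuclei, which held most of its UFIs. Without these and the Cps1-led nuclei, Hnf4aos measured 0.117 to 0.665 CPM and Hnf4a 0.282 to 0.784 CPM, not scaled by gene span. Dlx1as and Dlx1 were level at 93.8 and 92.5 UFIs per kb. At the other end, Zeb2os, which lies inside the neural transcription factor gene Zeb2, had 42 UFIs against 75780 and 2.19% of the level per kb. Uchl1os, antisense to a neuronal ubiquitin hydrolase gene, had 2.17% (13.3 against 615 UFIs per kb), and St8sia3os, which encloses a sialyltransferase gene, 0.782% (3.59 against 459).

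**Figure D2:**
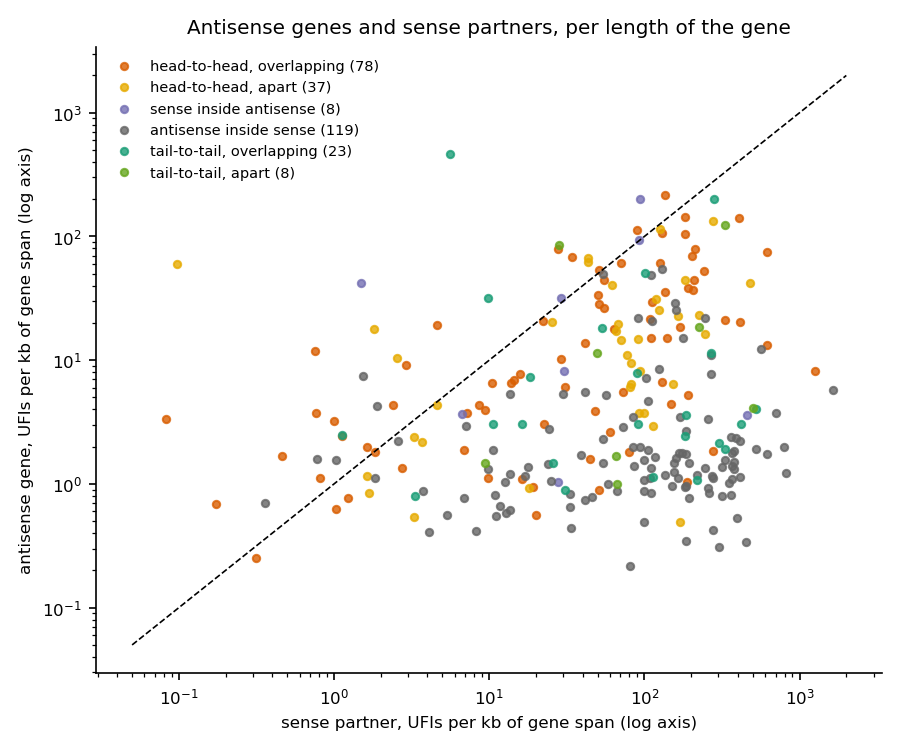
UFIs per kb of gene span of each antisense gene (vertical log axis) against its sense partner (horizontal log axis), with colours for the arrangement of the pair and a dashed line of equal levels. Of the 273 pairs 35 lie above the line, and antisense genes inside their partner lie farthest below it.

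Kinds of nuclei were read from the clusters, as UFIs of a gene per 10000 UFIs of the kind. Levels are sums over nuclei, so that fewer expressing cells and less RNA per cell cannot be told apart. Summed over all antisense genes, the level was highest in kidney tubule-like nuclei (15.9), followed by interneuron-like nuclei (7.96), a neuron-like cluster led by B020031H02Rik (7.45), one led by Prdm16 (5.71) and astrocyte-like nuclei (5.60). Cortical excitatory neuron-like nuclei (2.48) and a neuron-like cluster led by Nr4a2 (2.36) were lowest. Single genes carried much of the highest sums, as their levels below show. These were Hnf4aos in kidney tubule-like nuclei and Dlx6os1 in interneuron-like nuclei and the B020031H02Rik-led cluster. The order of the kinds without these genes was not computed. Of the 54 antisense genes with at least 200 UFIs, 15 were highest in kidney tubule-like nuclei, and no other kind held more than 4. The share of all genes that were highest in these nuclei was not computed, so this count does not set antisense genes apart from other genes. The highest kind of these 54 genes stayed the same for 34 with a finer clustering (resolution 1.2), 37 with 20 principal components and 47 when the members were kept among the genes used to cluster.

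Antisense genes of the forebrain inhibitory lineage stood out among neurons. Dlx6os1 (chr6:6820189-6871592, minus strand, enclosing Dlx6) had 3.70 UFIs per 10000 in the B020031H02Rik-led cluster, 3.36 in interneuron-like nuclei, 1.83 in the Prdm16-led cluster and 1.21 in medium spiny neuron-like nuclei. Interneuron-like nuclei held 48.2% of its UFIs, with 2.65 to 4.62 per 10000 over the 7 libraries, and medium spiny neuron-like nuclei 0.887 to 1.46, so that these kinds did not overlap in any library. A Dlx6os1 UFI was seen in 82.6% of interneuron-like nuclei and in 2.47% of cortical excitatory neuron-like nuclei, and after thinning in 49.2% and 0.453%. Its partner Dlx6 was highest in the Prdm16-led cluster (0.133 per 10000).

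Dlx1as (chr2:71516454-71537891, minus strand, enclosing Dlx1) was more restricted. It had 1.04 UFIs per 10000 in interneuron-like nuclei (0.812 to 1.30 over the 7 libraries) and 0.317 in the Prdm16-led cluster, and interneuron-like nuclei held 76.0% of its UFIs. It was seen in 56.6% of interneuron-like and 0.957% of cortical excitatory neuron-like nuclei. In medium spiny neuron-like nuclei, where Dlx6os1 was abundant, Dlx1as was not among the 4 highest kinds. Gad1os (chr2:70489940-70563357, minus strand, head-to-head with Gad1, which encodes a GABA-synthesizing enzyme) was spread over inhibitory kinds, with 0.355 in the B020031H02Rik-led cluster, 0.282 in Purkinje-like nuclei and 0.236 in medium spiny neuron-like nuclei (0.189 to 0.283 over the 7 libraries). Grip1os3, divergent from a glutamate receptor scaffold gene, had 0.203 in interneuron-like nuclei (0.102 to 0.335) and 0.0583 in the next kind, while Six3os1, antisense to a forebrain homeobox gene, was highest in the B020031H02Rik-led cluster (0.129, from 16 UFIs).

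Other neurons had antisense genes of their own. Prox1os (chr1:190170296-190217276, plus strand) is divergent from Prox1, a homeobox gene of dentate granule neurons. It had 0.987 UFIs per 10000 in dentate granule neuron-like nuclei (0.728 to 1.14 over the 7 libraries), 0.386 in thalamic excitatory neuron-like nuclei and 0.283 in oligodendrocyte-like nuclei. A Prox1os UFI was seen in 62.8% of dentate granule neuron-like nuclei and in 1.06% of cortical excitatory neuron-like nuclei. Prox1 was highest in the same kind, at 4.37 per 10000.

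Otx2os1, divergent from a homeobox gene of the midbrain and forebrain, had 0.421 per 10000 in a cluster led by Chat (43 UFIs in 58 nuclei) and 0.295 in a large cluster led by Rmst, which held 61.1% of its UFIs. In the Rmst-led cluster its level ranged from 0.0485 to 0.463 between libraries. Lhx1os, divergent from the LIM homeobox gene Lhx1, had 1.01 in Purkinje-like nuclei, which were 75 in all, 0.343 in kidney tubule-like nuclei and 0.112 in the Rmst-led cluster. Dlx4os had 70 of its 127 UFIs in Purkinje-like nuclei (0.581 per 10000), although its partner Dlx4 had 17 UFIs in all.

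Pax6os1 was highest in cerebellar granule-like nuclei (0.143 per 10000) and astrocyte-like nuclei (0.134), as Pax6 was (0.293 and 0.214). Uchl1os was highest in thalamic excitatory neuron-like nuclei (0.103), and Ptgs2os, divergent from the gene of cyclooxygenase-2, in a neuron-like cluster led by Igfn1 (0.110, 0.0591 to 0.163 over the 7 libraries). Foxo6os (80 UFIs), Kcnmb4os2 (40) and Zeb2os (42) were too sparse to place.

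Of the 54 antisense genes with at least 200 UFIs, 4 were highest in oligodendrocyte precursor-like and 3 in endothelial and pericyte-like nuclei. Another 2 were highest in oligodendrocyte-like nuclei and 1 in astrocyte-like nuclei. The share of all genes highest in these kinds was not computed. Nkx2-2os, whose partner Nkx2-2 is a homeobox gene of the oligodendrocyte lineage, had 1.01 UFIs per 10000 in oligodendrocyte-like nuclei (0.575 to 1.56 over the 7 libraries), 0.560 in oligodendrocyte precursor-like nuclei and 0.457 in astrocyte-like nuclei. A Nkx2-2os UFI was seen in 48.1% of oligodendrocyte-like nuclei, which held 50.1% of its UFIs. Nkx2-2 itself was highest in precursor-like nuclei (0.375 against 0.151 in oligodendrocyte-like nuclei). Has2os, divergent from a hyaluronan synthase gene, was also highest in precursor-like nuclei (0.219, from 38 UFIs).

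Emx2os had 0.855 in astrocyte-like nuclei and 0.510 in dentate granule neuron-like nuclei (0.364 to 0.601 over the 7 libraries), and its highest level, 0.871, was in kidney tubule-like nuclei. Tbx3os1, divergent from a T-box gene, had 0.542 in endothelial and pericyte-like nuclei and 0.328 in kidney tubule-like nuclei.

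Kidney tubule-like nuclei held most UFIs of Hnf4aos and Wt1os. Hnf4aos (chr2:163493807-163541720, minus strand) had 8.23 UFIs per 10000 there, 8.19 and 8.26 in the 2 libraries, and 96.9% of its UFIs. It was seen in 90.0% of these nuclei at a median of 8765 UFIs per nucleus and in 78.0% after thinning. In the Cps1-led cluster it had 0.334. Its partner Hnf4a was highest in the same nuclei, at 3.83 per 10000. Wt1os, divergent from the podocyte transcription factor gene Wt1, had 74 of 109 UFIs in the kidney cluster.

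Junos, Ino80dos, Rab10os, Mkln1os and Man2c1os were broad. Junos ranged from 0.490 per 10000 in dentate granule neuron-like nuclei (0.299 to 0.595 over the 7 libraries) to 0.0912 in Purkinje-like nuclei, and Ino80dos from 0.525 to 0.133. Rab10os ranged from 0.241 to 0.0981, Mkln1os from 0.314 in kidney tubule-like nuclei to 0.0727, and Man2c1os from 0.175 to 0.0332. The highest kind exceeded the mean of the others 1.53-fold for Rab10os and 272-fold for Hnf4aos.

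**Figure D3:**
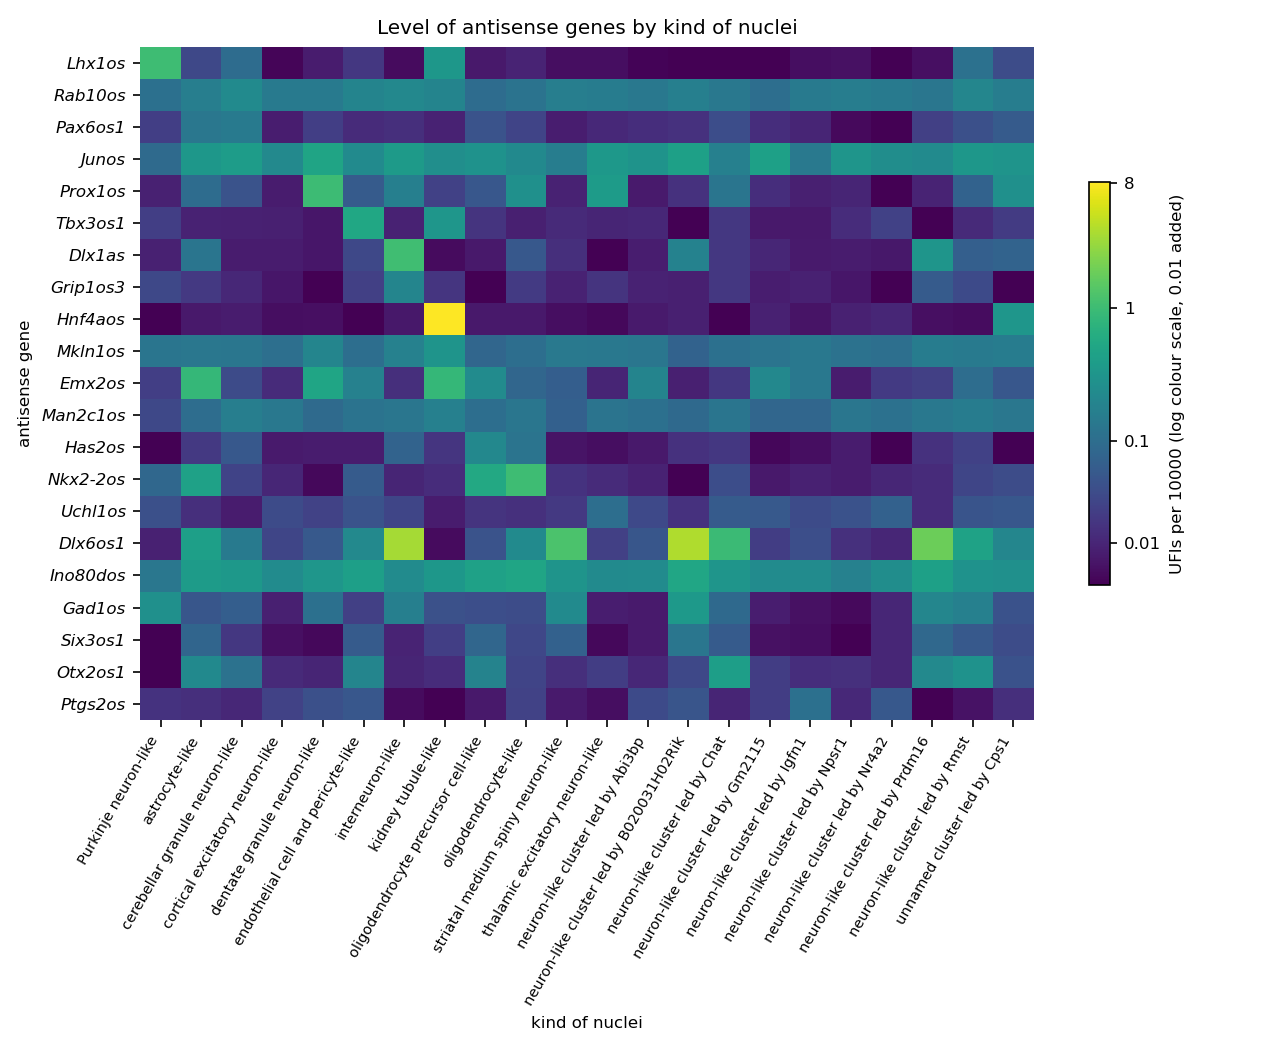
UFIs per 10000 (colour, log scale with 0.01 added) of named antisense genes (rows) in the kinds of nuclei (columns). Hnf4aos is bright in the kidney tubule-like column, Dlx6os1 and Dlx1as in the interneuron-like column and Prox1os in dentate granule neuron-like nuclei. Junos and Ino80dos are broad across columns, though not even.

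For 46 pairs both genes had at least 200 UFIs, and their levels were correlated over the 25 clusters. These correlations are descriptions, since clusters share libraries and depth. The median Spearman's rho between an antisense gene and its partner was 0.375, 18 pairs were above 0.5 and 6 were below 0. The partner was the gene most like the antisense gene among 14195 genes for 4 pairs (Dlx1as, Prox1os, Kcnd3os and Gad1os), among the first 10 genes for 6 and among the first 1% for 16. For 7 pairs it lay in the lower 50% of all genes. Within single libraries the median rho was lower, 0.161 to 0.280, and 20 pairs had a rho above 0 in all 7 libraries.

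Pairs of the inhibitory lineage and of the dentate gyrus were most alike. Over the clusters rho was 0.87 for Dlx1as with Dlx1 (0.35 to 0.79 within libraries), 0.86 for Prox1os with Prox1 (0.50 to 0.86), 0.85 for Gad1os with Gad1 (0.67 to 0.94) and 0.84 for Dlx6os1 with Dlx6 (0.57 to 0.86). Ptgs2os and Ptgs2 followed at 0.78, though within libraries rho went down to 0.01. The gene most like Dlx6os1 was Dlx5 (0.93), the neighbour of Dlx6. Those most like Gad1os after Gad1 were Gad2 (0.84) and Slc32a1 (0.82), the other GABA synthesis gene and the vesicular GABA transporter gene.

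The 5 lowest values of rho were -0.29 for Mypopos, -0.22 for Atad3aos, -0.19 for Zfp652os, -0.17 for Slc7a6os and -0.13 for Tmem147os. Each of these antisense genes was highest in kidney tubule-like, endothelial and pericyte-like or Cps1-led nuclei, at 0.162 UFIs per 10000 or less. Start sites within 1000 bp went with a median of 0.371 (21 pairs) and start sites farther apart with 0.422 (24 pairs). Of the divergent pairs whose promoters are printed above, Ptgs2os had 0.78, Lhx1os 0.37, Cep83os 0.22 and Mkln1os 0.08.

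By arrangement, the median rho was 0.614 in 24 head-to-head overlapping pairs, 0.683 in 4 pairs with the partner inside the antisense gene and 0.227 in 9 head-to-head pairs that did not overlap. It was 0.0379 in 4 pairs with the antisense gene inside its partner and 0.19 in 3 tail-to-tail overlapping pairs. Where genes overlap, rho also depends on how reads in the overlap were counted, and this setting is not given in the sources used here. Its effect on rho was not tested. For Hnf4aos the measure mattered. Its rho with Hnf4a was 0.25, and 0.03 without the kidney and Cps1-led clusters, whereas Pearson's r on log2 levels was 0.98.

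**Figure D4:**
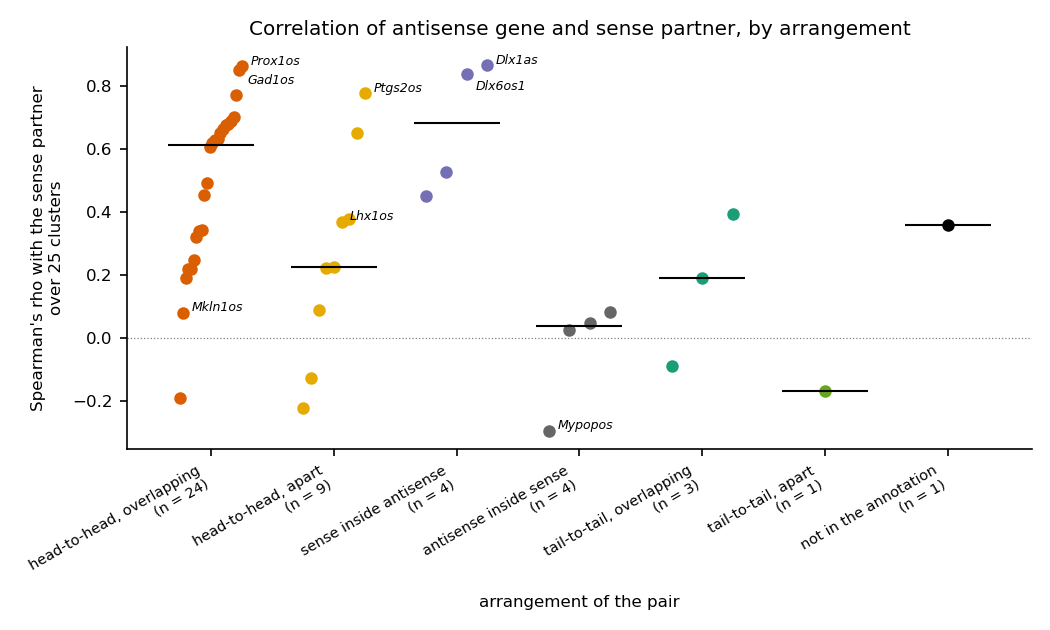
Spearman's rho of each antisense gene with its sense partner over 25 clusters (vertical axis), with 1 point per pair, 46 in all, grouped by the arrangement of the pair. Head-to-head overlapping pairs range from -0.19 to 0.86 around a median of 0.614, and the 4 antisense genes inside their partner reach at most 0.0838.

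In single nuclei thinned to 3000 UFIs, the antisense gene was seen more often in nuclei with a partner UFI than in nuclei without one in 35 of 46 pairs, with medians of 2.09% and 1.18%. Within the kind of nuclei where the antisense gene was highest, this held for 24 of 45 pairs, with medians of 3.54% and 3.46%. The same counts for other pairs of genes were not computed, so neither count sets antisense genes and their partners apart. Where genes overlap, such shares also depend on how reads in the overlap were counted, which was not tested. Prox1os was seen in 15.8% of nuclei with a Prox1 UFI and in 1.19% without one, in the same direction in 7 of 7 libraries, but within dentate granule neuron-like nuclei the shares were 23.2% and 32.1%. Gad1os was seen in 6.76% and 1.71% (7 of 7 libraries), and within the B020031H02Rik-led cluster in 5.63% and 3.23%. That cluster had 102 nuclei, so these last shares rest on very few nuclei with a Gad1os UFI.

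Wt1os differed from these pairs. Within kidney tubule-like nuclei it was seen in 65.0% of 20 nuclei with a Wt1 UFI and in 0.434% of 461 nuclei without one. The direction was the same in both libraries that hold these nuclei. Wt1 is a podocyte gene, and whether the 20 nuclei are another cell type within the cluster was not tested. Hnf4aos was seen in 85.3% and 64.9% of kidney tubule-like nuclei with and without an Hnf4a UFI.

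Storage was compared over libraries with primer as a term, by edgeR's quasi-likelihood test with Benjamini-Hochberg adjustment over 19299 genes. Nothing says that the libraries of a group came from separate animals, so the p-values measure the spread between libraries, which may be technical. Of 126 antisense genes that passed the filter on low counts, 0 had an adjusted p under 0.05, while 0.207% of all genes tested did. At an unadjusted p under 0.05 there were 22 antisense genes (17.5%), beside 15% of all genes. DESeq2 called 3 (2.38%), Lhx1os and Otx2os1 among them, beside 1.64% of all genes. Of 216 partners 2 were called (0.926%), Lhx1 among them, both higher in frozen brain, beside 0.114% of all genes that were higher. Without the kidney tubule-like and Cps1-led nuclei, 0 of 112 antisense genes were called by edgeR beside 0.252% of all genes, with 13 at an unadjusted p under 0.05 (11.6%, as for all genes).

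Otx2os1, lower in each frozen library than in any fresh one, did not pass the test by storage. It measured 4.88, 5.70, 4.03 and 2.45 CPM in the 4 frozen libraries and 8.65, 12.5 and 8.40 in the 3 fresh libraries. The log2 difference of frozen against fresh was -1.16 (SE 0.21), with an adjusted p of 0.0901 by edgeR. In neuron-like nuclei alone the adjusted p was 0.0085, and without the fresh preindexed library 0.0317. Without the kidney, Cps1-led and cerebellar nuclei the log2 difference was -1.09 and the adjusted p 0.0756 by edgeR. Lhx1os measured 8.83, 7.60, 3.58 and 3.65 in frozen brain and 2.55, 3.56 and 1.99 in fresh brain, with no overlap, means of 5.91 ± 2.71 (SD, n = 4) and 2.70 ± 0.794 (SD, n = 3) and an adjusted p of 0.0717 by edgeR. Without the kidney, Cps1-led and cerebellar nuclei its log2 difference was -0.23.

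Lhx1 measured 5.93 and 5.36 CPM in frozen brain without preindex, 1.06 and 1.16 in frozen brain with preindex, 1.21 and 1.89 in fresh brain without preindex and 0.311 in fresh brain with preindex. Frozen brain was higher than fresh brain within each primer, with 1 fresh library in the preindexed comparison. The log2 difference was 1.85 (SE 0.21), with an adjusted p of 0.0243 by edgeR, and the groups overlapped when the primer was ignored. Without the kidney tubule-like and Cps1-led nuclei, Lhx1 measured 0.208 and 0.171 in the preindexed frozen libraries and 0.313 in the preindexed fresh one, so that the direction within preindex turned. Its log2 difference was then 1.49 (adjusted p = 0.164), and 0.45 (adjusted p = 0.711) without the cerebellar nuclei as well. Neither partner was called in these settings. Leaving out any frozen library or fresh replicate 1 without preindex left 0 partners called, with log2 differences of Lhx1 of 1.68 to 1.91. Without the fresh preindexed library, 5 of 104 antisense genes (4.81%) and 15 of 216 partners (6.94%) were called for storage, beside 4.63% of all genes.

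By primer, 9 of 126 antisense genes differed (7.14%), 2 higher and 7 lower with preindex, beside 15.8% of all genes tested. Of 216 partners 40 differed (18.5%), 28 higher and 12 lower, while 7.88% of all genes were higher and 7.88% lower. The share of antisense genes lay below that of all genes, and the antisense genes also had fewer UFIs. The share of partners lay above that of all genes on the higher side (13%) and below it on the lower side (5.56%). Partners passed the filter on low counts more often than other genes (216 of 240, beside 19299 of all 34496 genes). The shares were not compared at equal count level, so the excess is not shown to be a trait of partners. With DESeq2 22.2% of partners were called, beside 15.9% of all genes.

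Chd3os, whose partner Chd3 encodes a chromatin remodeller of the NuRD complex, held in each alternative run. The pair has no arrangement here, because Chd3os is not in the annotation used. It measured 8.13, 7.54, 7.96 and 8.46 CPM without preindex and 4.91, 4.75 and 4.67 with preindex. The groups did not overlap, and the log2 difference was -0.66 (SE 0.10), with an adjusted p of 0.00673 by edgeR. St8sia3os measured 3.49, 4.41, 4.93 and 4.55 without preindex and 2.32, 2.01 and 2.99 with preindex. Its log2 difference was -0.70 (SE 0.15), with an adjusted p of 0.0223 by edgeR and 0.00963 without the kidney, Cps1-led and cerebellar nuclei. Leaving out frozen replicate 2 without preindex, either preindexed frozen library or fresh replicate 1 without preindex gave St8sia3os adjusted p-values of 0.0628 to 0.0898, and with the replicate block it was 0.0511.

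Dlx4os, Plekhd1os, Pax6os1 and Lhx1os were also lower with preindex, where cerebellar granule-like nuclei numbered 0 to 3 per library. Dlx4os measured 3.72 and 2.38 CPM in frozen and 0.444 and 0.613 in fresh brain without preindex, and 0.228, 0.315 and 0.218 with preindex. The Purkinje-like nuclei, which hold most of its UFIs, numbered 23 and 20 in the frozen libraries without preindex and 2 to 12 in the other 5. Plekhd1os (37 UFIs in all) measured 0.141 to 1.05 and 0.0623 to 0.126. Pax6os1 measured 2.24 to 5.93 and 1.03 to 2.17, and Lhx1os 2.55 to 8.83 and 1.99 to 3.65, where the groups overlapped.

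The log2 differences by primer were -2.74 (SE 0.48) for Dlx4os, -2.48 (SE 0.53) for Plekhd1os, -1.11 (SE 0.28) for Pax6os1 and -0.88 (SE 0.19) for Lhx1os, with adjusted p-values by edgeR of 0.0114, 0.0209, 0.0353 and 0.0219. Without the kidney tubule-like and Cps1-led nuclei the differences of Lhx1os and Plekhd1os were -1.78 and -3.57 (adjusted p of 0.0125 and 0.0143). Without the cerebellar nuclei as well, that of Lhx1os was -0.79 (adjusted p = 0.0542), near its value in all nuclei, and that of Pax6os1 was -0.67 (adjusted p = 0.061). Neither was then called, and Dlx4os and Plekhd1os did not pass the filter. With the replicate block Lhx1os had an adjusted p of 0.0542. Leaving out any preindexed frozen library ended the call of each of these 4 genes (adjusted p of 0.056 to 0.116). Leaving out a frozen library without preindex ended that of Plekhd1os and Lhx1os (0.0608 to 0.0702), and for replicate 1 that of Pax6os1 (0.0894). Leaving out fresh replicate 1 without preindex ended the call of Pax6os1 (0.0796), and replicate 2 those of Pax6os1 (0.0528) and Lhx1os (0.0506). Junos measured 29.8 to 32.3 without preindex and 25.4 to 25.7 with preindex. Its log2 difference was -0.19 (SE 0.05) with an adjusted p of 0.0433, and the call held in no alternative except the one without the fresh preindexed library.

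Hnf4aos was higher with preindex, by 4.99 (SE 0.94) on the log2 scale, with an adjusted p by edgeR of 0.0142. Without the kidney tubule-like and Cps1-led nuclei, Hnf4aos measured 0.117 to 0.665 in the 7 libraries (adjusted p = 0.964). Leaving out any frozen library gave Hnf4aos adjusted p-values of 0.0526 to 0.0584. The log2 difference was 8.94 without the fresh preindexed library, 3.94 without frozen replicate 2 without preindex and 7.17 by DESeq2. For all antisense genes, the count called by primer was 8 of 112 without the kidney tubule-like and Cps1-led nuclei, beside 19.3% of all genes. It was 3 of 102 without the cerebellar nuclei as well (Chd3os, St8sia3os and Dlx6os1), beside 16.6%. The latter setting kept the inhibitory kinds in which Dlx6os1 was high, whose share of the nuclei differed between libraries.

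Among the partners, Hnf4a, Slc13a2, Hoxb5 and Mecom were higher with preindex. Slc13a2, a dicarboxylate transporter gene of the kidney tubule, measured 13.8 and 12.4 CPM in the preindexed frozen libraries and 0.156 or less in the other 5, and Mecom 91.4 and 122 against 6.79 to 15.0. Hoxb5 measured 1.52 and 1.35 in the preindexed frozen libraries, 0 in the preindexed fresh one and at most 0.0404 without preindex. Without the kidney tubule-like and Cps1-led nuclei the log2 difference was -0.084 for Hnf4a (adjusted p = 0.931) and 0.54 for Mecom (adjusted p = 0.123), and Slc13a2 and Hoxb5 did not pass the filter. Leaving out any frozen library ended the calls of Hnf4a, Hoxb5 and Mecom (adjusted p of 0.0518 to 0.181), and leaving out fresh replicate 1 without preindex that of Hnf4a (0.0529). With the replicate block Hnf4a and Hoxb5 were not called (0.0745 and 0.0874). Lhx1, Plekhd1, Taco1, Pax6 and Tmem147 were lower. Taco1, which encodes a translational activator of mitochondrial cytochrome oxidase, measured 62.8, 58.3, 74.0 and 97.3 without preindex and 10.6, 13.3 and 42.8 with preindex, a log2 difference of -1.65 (SE 0.29) with an adjusted p of 0.011 by edgeR and 0.0563 without preindexed frozen replicate 2. Tmem147 measured 5.58 to 6.50 and 3.46 to 3.80, a log2 difference of -0.62 (SE 0.12) with an adjusted p of 0.0134 by edgeR, while its antisense gene Tmem147os differed by -0.19 (adjusted p = 0.479). Leaving out either preindexed frozen library gave Tmem147 adjusted p-values of 0.059 and 0.0616. Leaving out any frozen library ended the call of Plekhd1 (0.0533 to 0.0986). Lhx1 and Pax6 were lower together with their antisense genes Lhx1os and Pax6os1, and without the kidney, Cps1-led and cerebellar nuclei Lhx1 differed by -2.43 (adjusted p = 0.00385) and Pax6 by -0.49 (adjusted p = 0.0771).

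The number of antisense genes called by primer rests on single libraries. Leaving out preindexed frozen replicate 1 or 2 left 2 calls in either case, beside 6.13% and 5.26% of all genes. Leaving out frozen replicate 1 or 2 without preindex left 5 and 4, beside 9.57% and 7.44%. Leaving out the fresh preindexed library gave 21 of 104 antisense genes (20.2%) and 87 of 216 partners (40.3%), beside 31.3% of all genes.

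**Figure D5:**
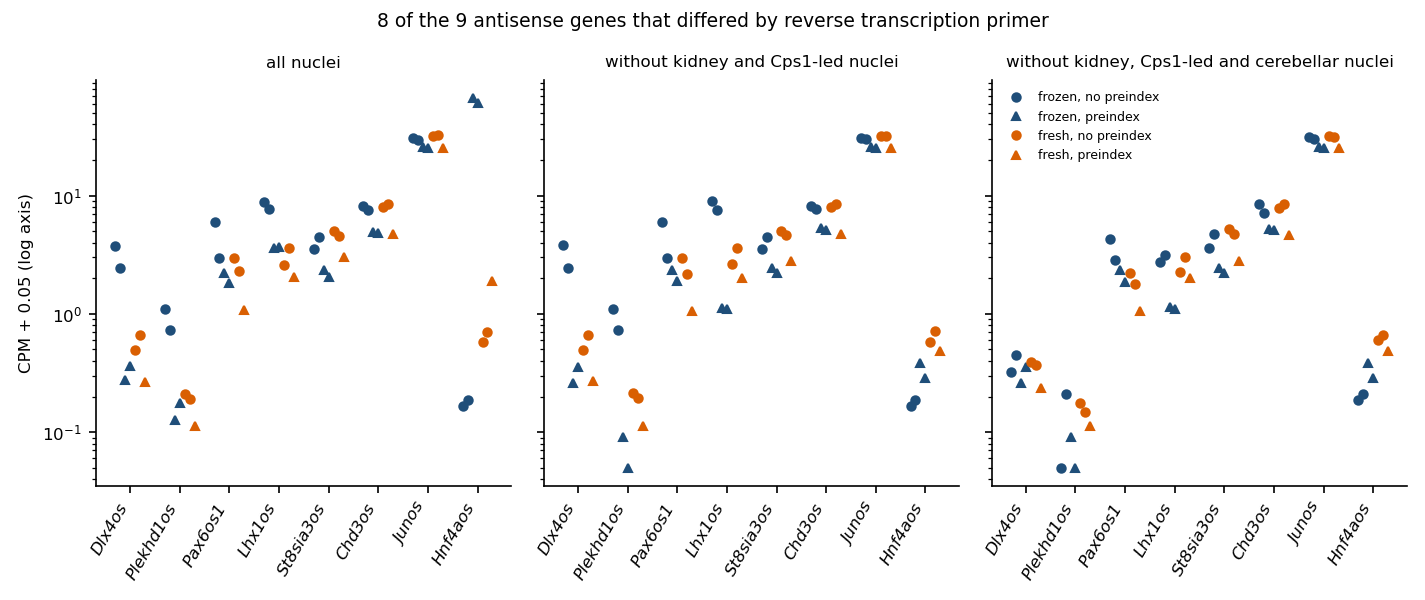
CPM plus 0.05 (vertical log axis) of 8 of the 9 antisense genes that differed by primer, with 1 point per library, in all nuclei, without the kidney tubule-like and Cps1-led nuclei and without these and the cerebellar nuclei. Hnf4aos drops to 0.117 to 0.665 CPM without the kidney tubule-like and Cps1-led nuclei, and Chd3os keeps its 3 preindexed libraries below the other 4.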

How the data were processed

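The authors trimmed reads, aligned them with STAR, gave uniquely mapped reads to whole genes (introns included), and used UMI-tools to count UFIs. The submitters' notes also name cutadapt, featureCounts and Scanpy, and the builds GRCh38, GRCm38 and mm10. The study calls the quantification by UFI strand-specific, but the annotation release and the strand option of the read counter are not given in the sources used here. The deposited values are whole counts of UFIs per gene and nucleus, without normalization. The species mixes were not used here. The members, lists and tests were chosen with earlier results of these data known.

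Symbols were matched to GENCODE M21 for position and to RefSeq for promoters. Nuclei were all kept, and doublets were neither called nor removed. They were scaled to 10000 UFIs, logged and clustered in scanpy 1.11.5 on 2000 variable genes, members left out, with 40 principal components, 10 neighbours and a Leiden resolution of 0.4. Names needed 3 markers that were 2-fold up and 1 marker in the 10 leading genes. Clusters with 3 of 17 neuron markers over their mean, and led by no other class, were called neuron-like. These rules were widened after a first clustering had been seen. Kinds within a library were read from 20 nuclei.

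CPM are UFI counts scaled to the library total, without TMM. UFIs were summed per library, passed through filterByExpr for the 4 groups, TMM scaling and the quasi-likelihood test of edgeR 4.0.16 in R 4.3.3 (storage and primer as terms, adjusted p of 0.05), with DESeq2 1.42.0 as an alternative. The fit was tested on simulated data. Named genes are a fixed list (14 of its members are reported), the 8 highest, the 12 most uneven between kinds, the 5 highest and 5 lowest correlations, antisense genes called and the 5 partners per direction with the largest change. Some genes that this rule names are not reported here. Replicate numbers were checked for pairing. The precision of single values is limited by depth, from 8605214 UFIs in the shallowest library.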

Additional observations from a re-analysis of the deposited data

Results flagged for a closer look

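The storage ratio of 2 antisense genes went opposite ways in the 2 primers, with every library of a primer on the same side, and this difference was not tested. Frozen brain had 34.6 times the Hnf4aos level of fresh brain with preindex (66.3 and 60.9 against 1.84 CPM) and 0.213 times without preindex (0.116 and 0.136 against 0.525 and 0.660). The frozen libraries without preindex held 8605214 and 14730649 UFIs in all, so their Hnf4aos levels rest on very few UFIs, near the floor. The kidney tubule-like nuclei all came from the preindexed frozen libraries, and Hnf4aos measured 0.117 to 0.665 in the 7 libraries without them and the Cps1-led nuclei. For Junos the ratio was 1.01 with preindex (25.7 and 25.5 against 25.4) and 0.946 without preindex (30.7 and 29.8 against 31.6 and 32.3). The preindexed side rests on 1 fresh library. No library of the 4 frozen or 4 without preindex was flagged as apart from its group in the 11 measures read. Each of these groups pools 2 levels of the other factor, and a difference between the levels can hide a single deviating library. The fresh preindexed library was in neither group and was not checked.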

How the results depend on the processing

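For storage, the 0 antisense genes called became 3 with DESeq2 (2.38%, beside 1.64% of all genes). They became 13 with no filter on low counts (4.69%, beside 5.62%) and 1 in neuron-like nuclei alone (0.917%, beside 0.51%). When each library was left out, 0 to 5 were called, beside 0.0207 to 4.63% of all genes. The 2 partners called became 6 with DESeq2 (2.78%, beside 1.64%) and 37 with no filter (15.4%, beside 5.62%). They became 0 with the replicate block, without kidney and Cps1-led nuclei, in neuron-like nuclei alone and without kidney, Cps1-led and cerebellar nuclei. In these settings 0.0259 to 0.51% of all genes were called. When each library was left out, 0 to 15 partners were called. For primer, the 9 antisense genes called became 18 with no filter (6.5%, beside 13.9% of all genes). They became 3 without kidney, Cps1-led and cerebellar nuclei (2.94%, beside 16.6%), a setting chosen after seeing the data. The 40 partners became 77 with no filter (32.1%, beside 13.9%). When each library was left out, 2 to 21 antisense genes and 14 to 87 partners were called, beside 5.26 to 31.3% of all genes. Antisense genes in at least 1% of nuclei fell from 69 to 29 after thinning, and 24 reached 5%. The median rho of 0.375 was 0.267 at resolution 1.2, 0.442 with 20 components, 0.249 over the 13 pairs with at least 1000 UFIs, 0.531 with Pearson's r and 0.346 to 0.390 when each library was left out. Reversed log2 differences by primer were -0.084 (without kidney and Cps1-led nuclei), -0.19 (neuron-like nuclei alone) and -0.12 (without kidney, Cps1-led and cerebellar nuclei) for Hnf4a, and -0.54 for Mecom in neuron-like nuclei alone. Of 244 values under alternatives over 18 differences of named members, 162 kept direction and side of the threshold, 78 fell short of it and 4 reversed. Same-numbered libraries showed little shared deviation, with correlations of -0.0127, 0.0421 and -0.0429. This cannot tell whether they came from the same animal or run. With the replicate block, 6 antisense genes (4.76%) and 29 partners (13.4%) were called by primer, beside 8.97% of all genes. By storage 0 and 0 were called, beside 0.0259%. The cause of these changes was not tested, and with fewer genes or libraries fewer calls can be reached.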
